A study of Mus musculus with 30 samples.

Results

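Pgr and Greb1 are genes known from other estrogen-sensitive tissues to answer to estrogen, and their signal in the hypothalamus of newborn female mice was followed from 1 h to 24 h after an injection of estradiol benzoate (EB). Every probe set whose gene symbol in the annotation of the array was Pgr or Greb1 was taken, which gave 2 of the 18193 genes to which the array gives a probe set of 1 symbol and 7 of its 45037 probe sets without controls, 3 of Pgr and 4 of Greb1. Of these, 4 passed the filter on low signal, 2 of each gene, and the other 3 were dim and are given by their signals and exact tests, outside the fit across the array. Each of 30 Affymetrix GeneChip arrays of the mouse genome held RNA of the whole hypothalamus of a C57BL/6J female that was injected under the skin on the day of birth, at about 1.4 g body weight. EB-treated mice received 7.5 μg EB, an esterified estradiol that is cleaved in the body, in 20 μl peanut oil, and vehicle-treated mice received the oil. Tissue was taken at 1, 3, 6, 12 or 24 h, with 3 mice for each of the 10 groups, so that all mice shared strain, sex, age at injection and the oil. The labels call the 3 arrays of a group biological replicates, and whether litters were shared is not stated. The study asked which genes answer to estrogen at the age when the rodent brain takes its male or female form.

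Progesterone receptor, the product of Pgr, is a transcription factor of the nuclear receptor family that is switched on by progesterone. In the uterus, breast and hypothalamus its gene is under the control of estrogen through estrogen receptor α, the product of Esr1, and in the hypothalamus the receptor takes part in female sexual behavior and in the surge of luteinizing hormone. Greb1 was named from growth regulation by estrogen in breast cancer cells, where it is an early target of estrogen receptor α, and its protein binds to that receptor and acts as a cofactor of transcription.

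In GRCm38.p6, Pgr lies on chromosome 9 from 8898900 to 8968611 with 2 RefSeq transcripts, and Greb1 lies on chromosome 12 from 16670615 to 16801394 with 21. The promoters that RefSeq gives for these genes are shown because an estrogen receptor bound to DNA recognizes GGTCA, most strongly as the palindrome GGTCANNNTGACC. Each runs 5′ to 3′ on the strand of the gene, from 250 bases before a start of transcription given by RefSeq to 50 after it, and capitals mark GGTCA or, for the other strand, TGACC.
Pgr, chr9:8899583-8899882, plus strand: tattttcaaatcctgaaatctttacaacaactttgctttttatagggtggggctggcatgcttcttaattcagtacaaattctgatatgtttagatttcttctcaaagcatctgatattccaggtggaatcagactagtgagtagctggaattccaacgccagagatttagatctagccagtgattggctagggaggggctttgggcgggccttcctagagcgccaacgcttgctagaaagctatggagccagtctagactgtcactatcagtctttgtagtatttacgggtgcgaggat
Greb1, first start, chr12:16800837-16801136, minus strand: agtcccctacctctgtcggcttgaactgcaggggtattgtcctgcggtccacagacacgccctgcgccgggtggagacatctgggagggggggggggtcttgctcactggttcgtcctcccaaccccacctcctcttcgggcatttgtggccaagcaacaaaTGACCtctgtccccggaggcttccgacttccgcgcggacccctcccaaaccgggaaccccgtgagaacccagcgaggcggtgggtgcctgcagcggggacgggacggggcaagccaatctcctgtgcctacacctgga
Greb1, second start, chr12:16757190-16757489, minus strand: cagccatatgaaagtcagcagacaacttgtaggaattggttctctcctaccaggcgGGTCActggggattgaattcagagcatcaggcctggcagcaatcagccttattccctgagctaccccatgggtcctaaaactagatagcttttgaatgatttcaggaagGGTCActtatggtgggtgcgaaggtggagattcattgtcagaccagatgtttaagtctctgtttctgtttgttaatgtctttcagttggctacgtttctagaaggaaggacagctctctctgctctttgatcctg
The Pgr window held none of these letters as GGTCA or TGACC. The first Greb1 window held 1 such half-site, at -88 from the start, and the second held 2, at -194 and -85. None of the 3 windows held the palindrome. Among 32851 promoters of 300 bases, 40.5% held a half-site and 0.07% the palindrome on either strand, so a half-site alone is common. The GC content was 43.7% for Pgr, against 65.3% and 46.3% for the Greb1 windows. A match says only that the letters are present. The starts used, at 8899833 for Pgr and at 16800886 and 16757239 for Greb1, lie inside the annotated genes, whose first bases in the direction of transcription, 8898900 and 16801394, are upstream of them, and sequence upstream of these windows was not searched.

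Signals are MAS5 intensities as deposited, each array scaled so that all 30 had one median (41.3). Fold changes and tests are on the log2 scale from limma, fitted to all 30 arrays as 10 groups, with p-values adjusted by the Benjamini-Hochberg method over the 27022 probe sets that passed the filter and a threshold of 0.05. Since the tissue was measured in bulk, fewer cells that express a gene and less RNA per cell cannot be told apart. The labels give no batch of hybridization, and because the medians of the deposited arrays ran from 28.0 to 66.9, values over time rest on the scaling.

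Over the 5 times as a whole, Pgr signal was called higher in EB-treated than in vehicle-treated mice in 1 of the 2 Pgr probe sets that passed the filter. Probe set 1439527_at, the brightest of Pgr (geometric mean signal 136, above 71.6% of all probe sets), read 105, 87.7 and 83.9 in the vehicle-treated mice at 1 h, and 115, 115 and 125 in the EB-treated mice. At 3 h the vehicle-treated mice read 109, 110 and 114 and the EB-treated mice 163, 144 and 103, so that one EB-treated mouse lay below all 3 controls and the groups overlapped. At 6 h the vehicle-treated mice read 121, 96.4 and 105 and the EB-treated mice 171, 165 and 191. The 6 h groups stood widest apart, with the lowest EB-treated mouse at 165 and the highest control at 121. At 12 h the vehicle-treated mice read 136, 158 and 161 against 212, 189.9 and 175 in the EB-treated mice. At 24 h they read 127, 131 and 148 against 212, 157 and 199. Every EB-treated mouse was above every vehicle-treated mouse at 4 of the 5 times, all except 3 h. Of all 27022 probe sets, 10.4%, 8.7%, 5.66%, 5.27% and 9.84% showed that separation at 1, 3, 6, 12 and 24 h.

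**Figure D1:**
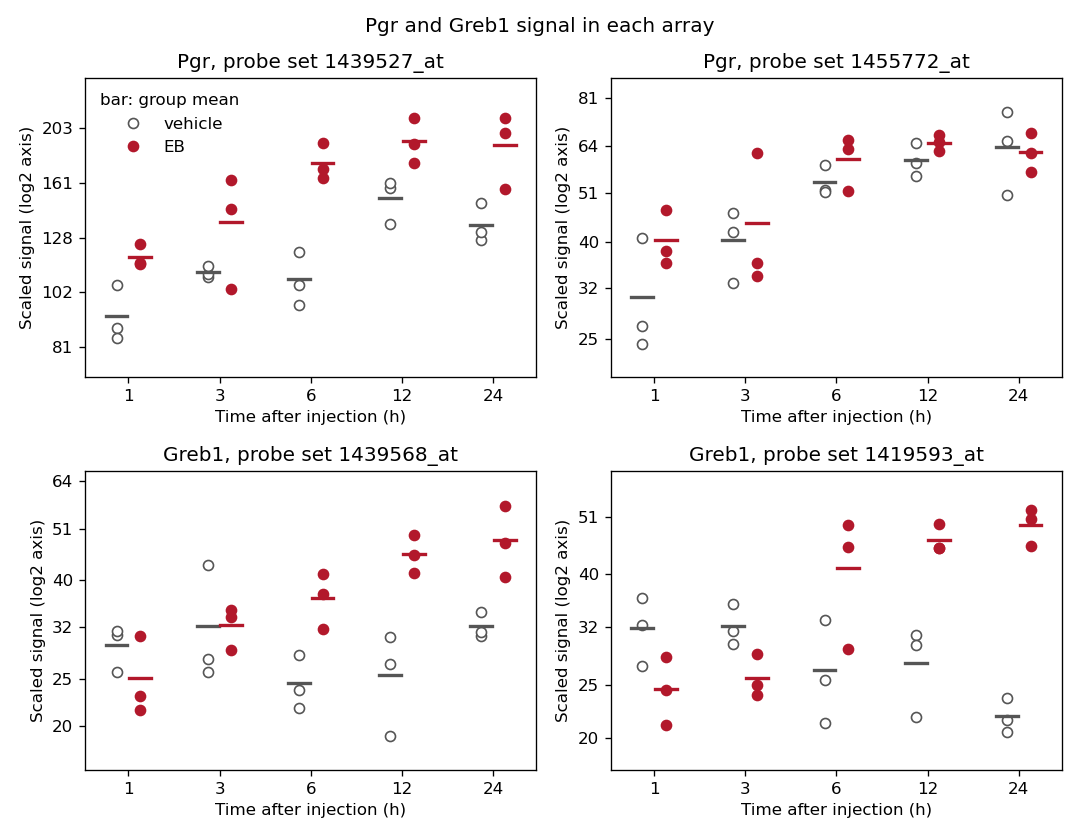
Signal of single arrays after scaling (vertical, in MAS5 units on a log2 axis) by hours since injection (horizontal, evenly spaced) for the 2 probe sets of Pgr and the 2 of Greb1 that passed the filter, with open circles for vehicle-treated mice, filled circles for EB-treated mice and bars for the means of 3 mice. The EB-treated mice of Pgr 1439527_at lie above the controls at 1, 6, 12 and 24 h, while those of both Greb1 probe sets lie below or among the controls at 1 h and 3 h and above all of them at 12 h and 24 h.

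The mean signal of Pgr 1439527_at was 118 ± 5.71 in EB-treated and 92.3 ± 11.4 in vehicle-treated mice at 1 h (mean ± SD, n = 3 each, here and below), and 137 ± 30.8 and 111 ± 2.50 at 3 h. It was 175 ± 13.5 and 107 ± 12.4 at 6 h, which is 1.63-fold, the widest gap of the 5 times. It was 192 ± 18.2 and 152 ± 14.0 at 12 h, and 189 ± 28.6 and 135 ± 11.3 at 24 h. Averaged over the 5 times, the log2 fold change was 0.43 (standard error 0.06, 95% confidence interval 0.31 to 0.56, adjusted p = 0.00303 from limma), with EB higher at 5 of 5 times. This probe set had the smallest p of all 27022 in that comparison, in which 5 probe sets (0.0185%) were called higher and 15 lower. An exact permutation test of EB and vehicle labels within each time, two-sided over 3200000 arrangements, gave an unadjusted p = 5.63e-06 for the same mean difference, the smallest of the 7 probe sets tested this way. On the deposited values without scaling the averaged log2 fold change was 0.39 and did not pass (adjusted p = 0.247 from limma), and in the methods' unmoderated two-factor test on linear signal the difference of 38.9 signal units did not pass either (adjusted p = 0.50), where 0 probe sets were called. That test takes its factors, treatment and time, from the study's analysis of variance, but the adjustment over all 27022 probe sets was added here. Leaving out any one array kept the averaged value between 0.41 and 0.47, with adjusted p from 7.26e-05 to 0.0105 from limma.

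At single times Pgr 1439527_at did not pass. Its value at 3 h depended most on single arrays, from 0.14 to 0.47 when each was left out in turn, with the highest without EB 3 h replicate 3. From 1 h to 24 h the log2 fold changes were 0.36, 0.28, 0.71, 0.34 and 0.48, and their adjusted p from limma 0.448, 0.397, 0.257, 0.727 and 0.0603. At 6 h its p ranked second of all probe sets (unadjusted p = 1.9e-05 from limma, 95% confidence interval 0.43 to 0.99), but no probe set passed there. limma called 0% of probe sets higher at 1, 6 and 12 h, although 2332, 1626 and 1774 reached an unadjusted p under 0.05 in either direction, and the methods' test called 0, 0 and 13 higher and 3, 0 and 505 lower. At 3 h 0.0962% were called higher by limma and at 24 h 0.581%. The 24 h value of Pgr lay close to the threshold: without EB 24 h replicate 2, the lowest of that group, it was 0.61 and passed (adjusted p = 0.0383 from limma), and it also passed without EB 3 h replicate 1 or 3, with array weights or with a stricter filter. It stayed uncalled in 27 of the 30 fits that left out 1 array, with 0.39 (adjusted p = 0.281 from limma) without EB 24 h replicate 1. Nor did it pass with quantile normalization, without the filter or without trend (adjusted p = 0.0664, 0.0889 and 0.0802 from limma). The effect of EB was not shown to differ between the 5 times (F = 1.49, adjusted p = 0.554 from limma). Leaving out the 24 h arrays, an alternative chosen after the values were seen, gave an averaged value of 0.42 (adjusted p = 0.0294 from limma), and leaving out the 12 h arrays gave 0.46 (adjusted p = 0.00265).

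The second Pgr probe set read differently. In 1455772_at (geometric mean signal 50.0) the vehicle-treated mice read 40.9, 24.4 and 26.6 at 1 h and the EB-treated mice 36.1, 47.0 and 38.3. At 6 h, where the first probe set showed its widest gap, the controls read 51.8, 58.2 and 51.2 and the EB-treated mice 66.0, 63.1 and 51.4. At 24 h the controls read 65.6, 75.4 and 50.3 and the EB-treated mice 56.3, 68.2 and 62.0. The groups overlapped at all 5 times, and from 1 h to 24 h the ratios of mean signals were 1.32, 1.09, 1.12, 1.09 and 0.974. Its averaged log2 fold change, 0.16, did not pass (95% confidence interval -0.04 to 0.35, adjusted p = 0.659 from limma). Within the same arrays, the averaged effect was larger in 1439527_at than in 1455772_at by 0.28 on the log2 scale (exact permutation test, two-sided, p = 0.023, unadjusted, 1 of 2 such comparisons, n = 3 mice a group). The third Pgr probe set, 1421444_at, is the one designed on the RefSeq mRNA and was among the dimmest of the array (geometric mean signal 9.92, above 27.9% of probe sets). Its signal ran from 4.59 to 19.5 over all arrays, with an averaged log2 difference of 0.19 (exact permutation test, two-sided, p = 0.323). At 1 h all 3 EB-treated mice were below the controls in it (7.18 ± 0.892 against 12.6 ± 2.43), and at 12 h all 3 were above (14.4 ± 4.23 against 7.32 ± 2.51, n = 3). Of the probe sets that passed the filter, 5.27% had all 3 above at 12 h, and the share below at 1 h was not counted.

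**Figure D2:**
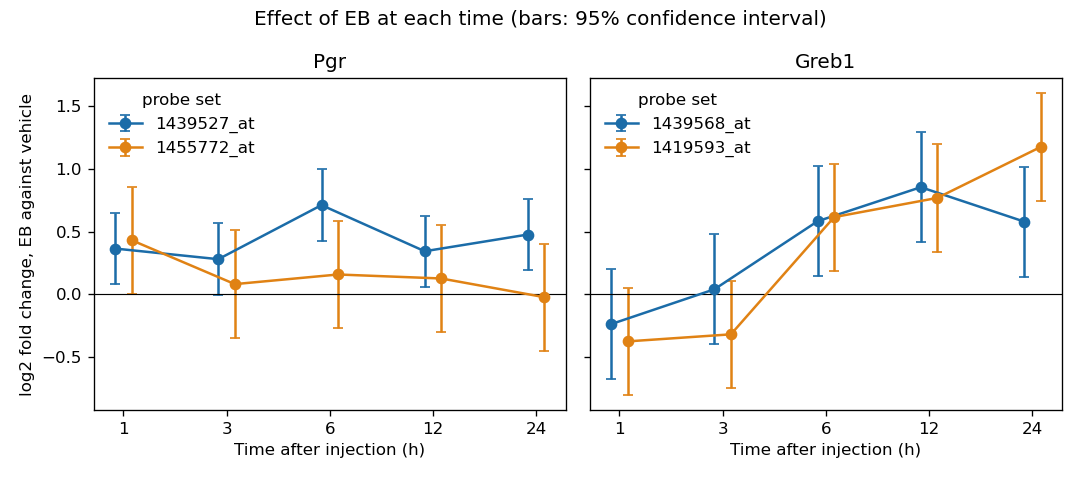
log2 fold change of EB-treated against vehicle-treated mice (vertical) by hours since injection (horizontal, evenly spaced) for the probe sets of Pgr on the left and of Greb1 on the right, with points for the limma estimate and bars for its 95% confidence interval. Pgr 1439527_at is above 0 at each time with its highest value, 0.71, at 6 h, while the Greb1 probe sets move from -0.24 and -0.37 at 1 h to 0.58 and 1.17 at 24 h.

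Greb1 signal in EB-treated mice lay below or among that of the controls at the early times and above it at the late ones, and it passed the test in 1 of 2 probe sets at 24 h. Probe set 1439568_at, by a small margin the brightest (geometric mean signal 32.0, above 46.0% of all probe sets), read 25.8, 30.8 and 31.5 in vehicle-treated and 21.6, 30.6 and 23.1 in EB-treated mice at 1 h. At 3 h it read 25.9, 27.5 and 43.0 in vehicle-treated and 34.7, 33.5 and 28.7 in EB-treated mice. The groups overlapped at both early times. At 6 h the controls read 23.8, 28.0 and 21.9 and the EB-treated mice 37.4, 31.7 and 41.1. At 12 h the controls read 30.5, 19.1 and 26.9 and the EB-treated mice 45.0, 41.3 and 49.7. At 24 h the controls read 30.7, 34.4 and 31.3 and the EB-treated mice 40.6, 47.8 and 56.8. At these 3 times every EB-treated mouse was above every vehicle-treated mouse, as for 5.66%, 5.27% and 9.84% of all probe sets.

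The mean signal of Greb1 1439568_at was 25.1 ± 4.83 in EB-treated and 29.4 ± 3.10 in vehicle-treated mice at 1 h, and at 3 h 32.3 ± 3.16 and 32.1 ± 9.43 (n = 3 each). It was 36.7 ± 4.76 and 24.5 ± 3.14 at 6 h, 45.3 ± 4.16 and 25.5 ± 5.84 at 12 h, and 48.4 ± 8.12 and 32.1 ± 2.00 at 24 h. The ratio of means was thus widest at 12 h, at 1.78. The log2 fold change was -0.24, 0.04, 0.58, 0.85 and 0.58 from 1 h to 24 h, and none passed (adjusted p from limma 0.793, 0.959, 0.646, 0.551 and 0.158). With single arrays removed, the 1 h value lay between -0.39 and -0.14 and the 3 h value between -0.10 and 0.27. At 12 h its p ranked 19 of 27022 (unadjusted p = 0.00042 from limma), and in the methods' test the difference there, 24.5 signal units, passed (adjusted p = 0.0203). That test used deposited values without scaling and called 1.92% of all probe sets at 12 h, 13 higher and 505 lower. Averaged over times the log2 fold change was 0.36 (standard error 0.096, 95% confidence interval 0.17 to 0.56, adjusted p = 0.168 from limma; exact permutation test within times, two-sided, unadjusted p = 0.00418), with EB higher at 4 of 5 times.

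The second Greb1 probe set, 1419593_at, designed on the RefSeq mRNA (geometric mean signal 31.3), was called higher with EB at 24 h. The vehicle-treated mice read 27.1, 36.2 and 32.3 at 1 h and the EB-treated mice 24.5, 21.1 and 28.1. At 3 h the controls read 29.8, 35.3 and 31.4, all above the EB-treated mice at 28.5, 25.0 and 23.9, as for 5.3% of all probe sets. At 6 h the controls read 25.6, 21.3 and 33.0 and the EB-treated mice 49.2, 44.9 and 29.1. The order of the groups had thus turned by 6 h, although the third EB-treated mouse was still below the highest control. At 12 h the controls read 31.0, 21.9 and 29.7 and the EB-treated mice 44.8, 44.8 and 49.4. At 24 h the controls read 20.5, 23.7 and 21.6 and the EB-treated mice 50.5, 52.4 and 45.2. At both late times every EB-treated mouse was above every control, as for 5.27% and 9.84% of all probe sets. The ratio of means was 1.69 at 12 h (46.3 ± 2.69 against 27.5 ± 4.93) and 2.25 at 24 h (49.4 ± 3.77 against 21.9 ± 1.61, n = 3). The EB-treated arrays of 12 h and 24 h overlapped, and the mean of the controls was lowest at 24 h. A ratio of 2 or more at 24 h was met by 0.0962% of probe sets.

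At 24 h the log2 fold change of Greb1 1419593_at was 1.17 (standard error 0.21, 95% confidence interval 0.75 to 1.60, adjusted p = 0.0017 from limma), the 73rd smallest p of 27022. It was between 1.13 and 1.24, with adjusted p from 0.000541 to 0.0173, when any one array was left out. It was also the 1 probe set that the methods' test called at 24 h (28.0 signal units, adjusted p = 0.0405). Before that the log2 fold change was -0.37, -0.32, 0.61 and 0.77 at 1, 3, 6 and 12 h, none of which passed limma (adjusted p = 0.643, 0.539, 0.581 and 0.551), while the methods' test called the 12 h difference too (22.8 signal units, adjusted p = 0.0184). At 12 h that test called 13 probe sets higher and 505 lower, 1.92% of all. The effect of EB on this probe set differed between the times (F = 10.9, adjusted p = 0.0137 from limma), as it did for 0.951% of all probe sets. That call was lost without EB 24 h replicate 1 (adjusted p = 0.058 from limma) or without vehicle 24 h replicate 1 (adjusted p = 0.0552). For 1439568_at the same test did not pass (F = 4.36, adjusted p = 0.146 from limma). Averaged over times, 1419593_at reached 0.37 on the log2 scale (standard error 0.093, with an adjusted p of 0.134 from limma; exact permutation test within times, two-sided, unadjusted p = 0.0189), with EB higher at 3 of 5 times. The averaged effects of the Greb1 probe sets differed by -0.01 on the log2 scale (exact permutation test, two-sided, p = 0.946). That average does not compare them at 24 h, where the log2 fold changes were 1.17 in 1419593_at and 0.58 in 1439568_at, a difference not tested. The 24 h controls averaged 21.9 in 1419593_at, its lowest of the 5 times, and 32.1 in 1439568_at, near its highest.

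The remaining Greb1 probe sets were too dim to be tested across the array. Probe set 1445323_at (geometric mean signal 5.64) ran from 0.483 to 13.2 over the 30 arrays, with all EB-treated mice below the controls at 1 h (2.85 ± 2.13 against 8.49 ± 1.24) and all above them at 24 h (11.1 ± 2.46 against 6.00 ± 1.37, n = 3). Probe set 1445324_s_at (geometric mean signal 2.45) ran from 0.641 to 17.4 and showed EB-treated mice above controls at 12 h with both means under 2 signal units, at 1.85 ± 0.817 against 0.889 ± 0.261. Their averaged log2 differences were 0.16 and 0.02 (exact permutation tests, two-sided, p = 0.707 and 0.943). Of the probe sets that passed the filter, 5.27% at 12 h and 9.84% at 24 h had all EB-treated mice above the controls. The share below at 1 h was not counted.

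**Figure D3:**
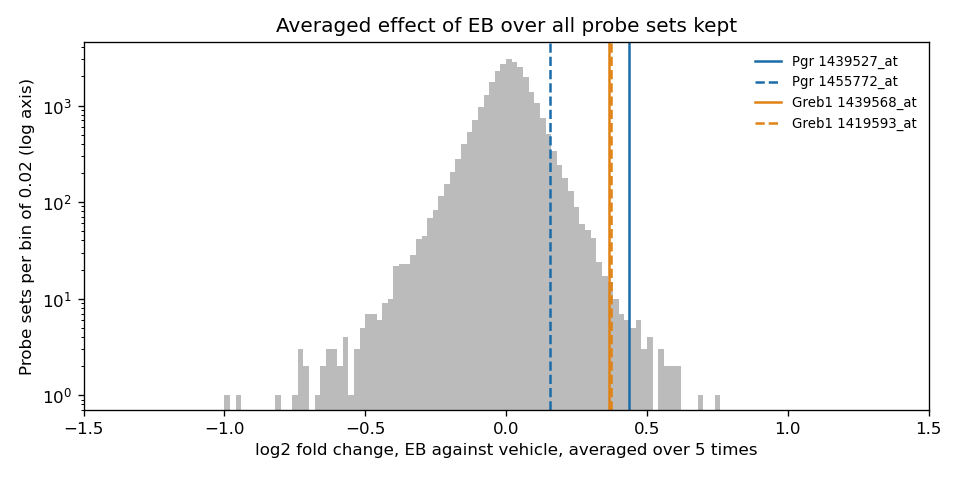
Number of probe sets (y axis, log axis) in each bin of 0.02 of the log2 fold change of EB-treated against vehicle-treated mice averaged over the 5 times (x axis), over the 27022 probe sets that passed the filter, with vertical lines at the 2 probe sets of Pgr and the 2 of Greb1. Pgr 1439527_at at 0.43 and the Greb1 probe sets at 0.36 and 0.37 lie in the thin upper tail, while Pgr 1455772_at at 0.16 lies on the shoulder of the main mass, whose median is 0.01.

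In vehicle-treated mice Pgr signal changed over the day after birth, and it was highest at 12 h and 24 h in both probe sets. Its order in 1439527_at, from low to high, was 1, 6, 3, 24 and 12 h. Neighbours in this order overlapped except between 3 h and 24 h, where the highest array at 3 h (114) was below the lowest at 24 h (127). The change over time passed limma (F = 8.40, adjusted p = 0.00139), as it did for 34.1% of all probe sets. In 1455772_at the means ran upward through 1, 3, 6, 12 and 24 h, from 30.6 ± 8.93 to 63.8 ± 12.7, with a gap only between 3 h and 6 h (F = 9.37, adjusted p = 0.000765 from limma). Greb1 in vehicle-treated mice had no gap between neighbouring times in either probe set, and the change over time did not pass (F = 1.46 and 2.36, adjusted p = 0.345 and 0.15 from limma). Without scaling both did pass there (F = 2.86 and 7.41, adjusted p = 0.0377 and 0.000213 from limma), as did 94.8% of all probe sets.

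In EB-treated mice both genes changed over time. Pgr 1439527_at ran 1, 3, 6, 24 and 12 h from low to high, with no overlap between the arrays of 3 h and 6 h (F = 10.1, adjusted p = 0.000938 from limma). Pgr 1455772_at ran in the same order with all neighbours overlapping (F = 4.98, adjusted p = 0.0229), and this call was lost without EB 1 h replicate 1 or 3 (adjusted p = 0.0622 and 0.0527 from limma). Greb1 ran 1, 3, 6, 12 and 24 h in both probe sets, with a gap between 6 h and 12 h in 1439568_at (F = 6.46, adjusted p = 0.00835) and between 3 h and 6 h in 1419593_at (F = 10.5, adjusted p = 0.000786). Such a change passed for 22.8% of all probe sets.

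Pgr and Greb1 were read on the same arrays, and their signals correlated over all arrays but not among the mice of one group. Pgr 1439527_at correlated with Greb1 1439568_at at r = 0.58 and with 1419593_at at r = 0.51 over the 30 arrays, and at 0.50 and 0.45 after each array was centred on the mean of its time. Centred on the mean of its own group, the correlations were -0.04 and -0.12. The Greb1 probe sets correlated with each other at 0.64, 0.66 and -0.03 in the same order, and the Pgr probe sets at 0.64, 0.23 and -0.05, so that mice of one group did not rank alike even in probe sets of one gene. These values are descriptions, since the points share groups, arrays and scaling.

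Among the estrogen receptors, Esr1, whose product is the main estrogen receptor of the hypothalamus, was read well above the filter and was not called in the comparison of EB with vehicle at any time. At 6 h it read 86.7, 78.8 and 112 in vehicle-treated mice and 61.9, 60.8 and 47.7 in EB-treated mice. At 12 h it read 106, 106 and 105 against 81.3, 81.0 and 64.1. All EB-treated mice were below all controls at these 2 times, while Pgr 1439527_at and Greb1 1439568_at were above theirs, and at 1, 3 and 24 h the Esr1 groups overlapped. Of all probe sets, 4.32% at 6 h and 6.07% at 12 h had all 3 EB-treated mice below the controls. The log2 fold change was -0.70 at 6 h (standard error 0.21, unadjusted p = 0.0024, adjusted p = 0.52 from limma) and -0.49 at 12 h (unadjusted p = 0.0261, adjusted p = 0.738), and -0.06 at 24 h. Esr2, which encodes the second nuclear estrogen receptor, was below the filter. Gper1, a membrane receptor that responds to estrogen, lay between -0.52 at 1 h and 0.22 at 24 h with no call.

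**Figure D4:**
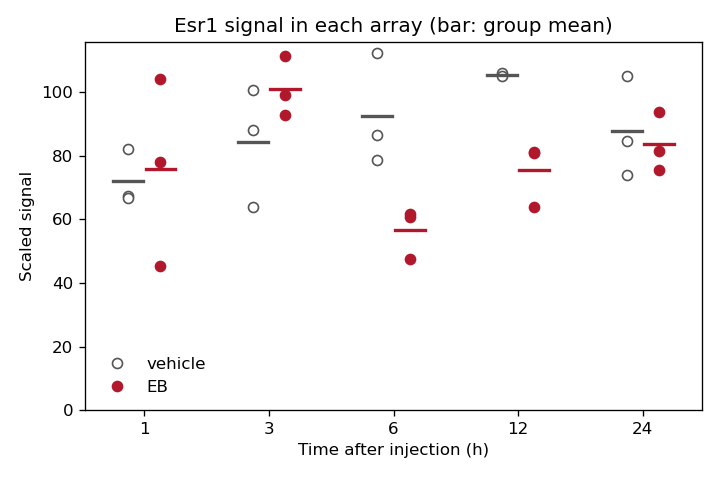
Esr1 signal of single arrays after scaling (vertical, in MAS5 units) by hours since injection (horizontal, evenly spaced), with open circles for vehicle-treated mice, filled circles for EB-treated mice and bars for the means of 3 mice. The EB-treated mice lie below all controls at 6 h and 12 h, and the groups overlap at 1, 3 and 24 h.

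The relatives of these genes were not called between EB-treated and vehicle-treated mice at any time or on average. Greb1l, the paralogue of Greb1, averaged -0.11 on the log2 scale (adjusted p = 0.703 from limma), and at 24 h, where Greb1 1419593_at was called higher, Greb1l was at -0.12 (adjusted p = 0.803). Nr3c1, the glucocorticoid receptor, and Nr3c2, the mineralocorticoid receptor, which belong to the same receptor family as Pgr, were at 0.02 and 0.20 on average (adjusted p = 0.931 and 0.626). Nr3c2 reached 0.84 at 3 h without passing (adjusted p = 0.119). Over time in vehicle-treated mice Nr3c1 and Nr3c2 were called (adjusted p = 0.000159 and 0.0487 from limma), as were 34.1% of all probe sets. Greb1l was not called there (adjusted p = 0.691 from limma).

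Of 19 listed partners of the progesterone receptor (membrane progesterone binding proteins, chaperones and cofactors), 13 passed the filter. At 24 h 1 of them rose and 1 fell, and none was called at another time or on average. Over all probe sets 0.581% were called higher and 2.19% lower at 24 h. Nrip1, a nuclear receptor corepressor that is itself induced by estrogen in other tissues, rose by 0.36 (standard error 0.095, adjusted p = 0.0352 from limma). Pgrmc1, a membrane protein that binds heme and steroids, fell by 0.31 (standard error 0.074, adjusted p = 0.0202 from limma). The median of the list at 24 h was 0.00 against -0.01 over all probe sets. Without scaling or without the filter neither gene was called.

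Of 36 genes listed as estrogen-responsive in breast, uterus and other tissues, 24 passed the filter. At 24 h Nrip1 alone rose, Cxcl12, a chemokine, fell by 1.81 (adjusted p = 0.00484 from limma) and Cited2, a transcriptional coactivator, fell by 0.39 (adjusted p = 0.0292), and the median was -0.08. Of 14 genes listed as estrogen-responsive in the hypothalamus, 13 passed the filter, and at 24 h Vip, a neuropeptide, rose by 0.97 (adjusted p = 0.0182) and Tac2, the neurokinin B precursor, fell by 0.78 (adjusted p = 0.0453), with a median of 0.05. At 24 h 3 of 24 and 2 of 13 genes were thus called, beside 0.581% of all probe sets called higher and 2.19% called lower. Both list shares were above these, but the lists were chosen with earlier results of these data known, and no test compared them. Without scaling each list had 1 call, as the hypothalamic list also had after quantile normalization or without the filter. No gene of either list was called on average over times, where Pgr 1439527_at was, and their averaged medians of 0.00 and 0.06 lay near the 0.01 of all probe sets.

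The labelled tissue was checked against marker genes, and the values that moved with the groups are given here because they touch the results above. All 14 markers of hypothalamic neurons with a probe set passed the filter, with Otp at a median signal of 1035, Sim1 at 283 and Avp at 1514. Dimmer ones fell low in single arrays, with lowest signals of 13.1 for Foxb1, 13.9 for Nkx2-1 and 16.7 for Nr5a1. The sum of the 14 genes was 5188 to 5972 in EB-treated and 5645 to 6133 in vehicle-treated mice at 24 h. At 24 h 17 of 19 leptomeningeal markers were called lower with EB, against 2.19% of all probe sets (median log2 fold change -2.27, against -0.01 over all probe sets), and their summed signal was 955 to 2935 in EB-treated and 4359 to 5554 in vehicle-treated mice. At 6 h, where Pgr was farthest apart, these sums overlapped (4554 to 8414 against 4903 to 10180). All 10 pituitary markers with a probe set were below the filter, with Prl at a median signal of 2.18 and Gh at 7.03. In single arrays Cga reached 166, from a median of 2.63, and Tshb 41.3, so a high sum can rest on few genes. The sum of the 10 pituitary markers stood out in EB 3 h replicate 3, at 167 against 71.3 to 89.4 in the other arrays of 3 h, and this was the mouse with the lowest Pgr 1439527_at signal at 3 h. Without it the log2 fold change of Pgr was 0.47 at 3 h (adjusted p = 0.229 from limma), and without EB 3 h replicate 1 it was 0.14 (adjusted p = 0.714). The part of the pituitary sum in the 3 h values was not tested. At 12 h the sum was 254, 239 and 77.3 in EB-treated and 98.6, 195 and 68.9 in vehicle-treated mice, and its part in the 12 h values was not tested. The sum at 24 h was 89.6, 88.0 and 276 in EB-treated and 66.4 to 90.5 in vehicle-treated mice, and without the third EB-treated mouse the 24 h log2 fold change was 1.24 for Greb1 1419593_at (adjusted p = 0.00275 from limma) and 0.43 for Pgr 1439527_at (adjusted p = 0.151). The sum of 5 telencephalic markers was 1263 in vehicle 6 h replicate 2. That array also had the lowest hypothalamic sum of 6 h (3977, with 5981 to 7244 in EB-treated mice) and the highest leptomeningeal sum of 6 h (10180). It was the control with the lowest Pgr 1439527_at signal at 6 h, 96.4. Without it the 6 h log2 fold change of Pgr 1439527_at was 0.63 (adjusted p = 0.492 from limma), and the part of these sums in the 6 h values was not tested. At 12 h the telencephalic sum was 105 to 199 in EB-treated and 244 to 317 in vehicle-treated mice, and its part in the 12 h values of Greb1 was not tested. The parts of the leptomeningeal difference and of the pituitary sum in the 24 h values were not tested.

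The genes whose signal followed Pgr 1439527_at most closely over the 30 arrays were Rassf5, a Ras association domain protein (r = 0.86), Phtf1 (r = 0.83), Slitrk1, a neuronal membrane protein (r = 0.82), Btbd11 (r = 0.82) and Fam210a (r = 0.80). After centring on time they were Phtf1 (r = 0.73), Iigp1, an interferon-induced GTPase (r = 0.73), Rassf5 (r = 0.71), Nup50, a nuclear pore protein (r = 0.70), and Arfgef3 (r = 0.68). Those that followed Greb1 1439568_at were Scrn3 (r = 0.69), Ubr2, a ubiquitin ligase (r = 0.63), Kctd7 (r = 0.63), Garem1 (r = 0.60) and Cops7b, a COP9 signalosome subunit (r = 0.59), and after centring Phf21b (r = 0.75), Scrn3 (r = 0.68), Tle3, a transcriptional corepressor (r = 0.68), Ksr1, a scaffold of the MAP kinase pathway (r = 0.65), and Ubr2 (r = 0.62). No gene was on both lists, and these are the highest of many correlations over arrays that share groups.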

How the data were processed

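Total RNA of the whole hypothalamus was hybridized to 30 arrays, and the authors deposited MAS5 signal intensities on a linear scale. Neither the MAS5 version nor a scaling factor is stated. Intensities of an array were multiplied to bring its median to the mean of all medians, 41.3. Signals under 1 were set to 1 before log2. Removing 64 control probe sets and the dimmest 40% left 27022 probe sets (12388 genes, mean signal above 21.9). limma 3.58.1 (R 4.3.3) estimated 10 group means, with eBayes, trend and Benjamini-Hochberg adjustment over all these probe sets. F tests had 4 degrees of freedom for time or interaction. Exact permutation tests (Python 3.11.15, numpy 2.4.6) exchanged treatment labels within each time. At a single time, 3 arrays against 3 cannot give an exact p below 0.1, so the number of arrays limits the precision. The methods' test was the unmoderated two-factor fit on the deposited intensity, adjusted over the same probe sets. The study describes a Bonferroni test after its analysis of variance, and the Benjamini-Hochberg adjustment over probe sets was added here. Unmapped array columns numbered 0, and no arrays held identical values. Symbols came from the platform annotation, and promoter sequences from RefSeq (GRCm38.p6), in which 2 of 2 genes matched. Probe sequences and the exons they lie in were not analysed here. The brightest probe set of a gene answered each comparison and the others are given beside it. Named beyond these were the 5 genes most correlated with each gene and the listed genes that passed. Members and gene lists were chosen with earlier results of these data known. The fit was tested on simulated data with known changes. Alternatives covered scaling, floor, filter, array weights, trend, replicate number, the methods' test, single times and leaving out each array.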

Additional observations from a re-analysis of the deposited data

Results flagged for a closer look

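The effect of EB on Greb1 1419593_at differed between the 5 times (F = 10.86, adjusted p = 0.0137 from limma), with log2 fold changes of -0.37 and -0.32 at 1 h and 3 h against 0.61, 0.77 and 1.17 at 6, 12 and 24 h. The other Greb1 probe set ran from -0.24 at 1 h to 0.85 at 12 h and did not pass that test (F = 4.36, adjusted p = 0.146). Groups held 3 arrays, so no single array was tested as standing apart.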

How the results depend on the processing

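Without scaling, the median log2 fold change of all probe sets was -0.07, -0.20, 0.07, -0.15 and 0.22 at 1, 3, 6, 12 and 24 h, so unscaled values carry these shifts. The averaged value of Pgr then was 0.39 (adjusted p = 0.247), Greb1 1439568_at turned to -0.20 at 3 h, Pgr 1455772_at turned at 3, 12 and 24 h (-0.16, -0.016 and 0.20), and Greb1 1439568_at and 1419593_at changed over time in vehicle (F = 2.86 and 7.41), as did 94.8% of all probe sets. In the methods' test, with the adjustment over probe sets added here, the averaged difference of Pgr was 38.9 signal units (adjusted p = 0.50). Greb1 1439568_at and 1419593_at passed at 12 h (24.5 and 22.8), as did 1.92% of all probe sets, 13 higher and 505 lower. Both also passed over time in vehicle (F = 3.91 and 10.8), as did 94.3% of all probe sets. The differences turned for Greb1 1439568_at at 3 h (-4.72) and for Pgr 1455772_at at 3, 12 and 24 h (-2.38, -0.77 and 7.38). Pgr at 24 h passed with the lowest 60% left out (0.48, adjusted p = 0.0483) and with array weights (0.46, adjusted p = 0.0236), which also turned Pgr 1455772_at at 3 h (-0.034). In exact tests, Greb1 1419593_at unscaled was 0.33 (p = 0.0674) and the dimmest probe set, 1445324_s_at, with a floor of 16 was -0.0078. Listed progesterone receptor partners called fell from 2 to 0 without scaling, 1 with quantile normalization and 0 without the filter, those of other tissues from 3 to 1 without scaling, and those of the hypothalamus from 2 to 1 under each of these 3 settings.

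When each array was left out, the value of Pgr at 24 h ranged from 0.39 to 0.61, that of Pgr at 3 h from 0.14 to 0.47, those of Greb1 1439568_at from -0.39 to -0.14 at 1 h and from -0.10 to 0.27 at 3 h, those of Pgr 1455772_at from -0.19 to 0.24 at 3 h and from -0.18 to 0.11 at 24 h, and its F over time in EB from 3.83 to 8.25. The interaction of Greb1 1419593_at ranged from F = 9.37 to 13.6. The causes of these changes were not tested.

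No pairing by replicate number was seen, since the 15 correlations of same-numbered deviations lay between -0.13 and 0.09. Such correlations cannot exclude shared litters or batches. With the replicate block the averaged value of Pgr was 0.43 (adjusted p = 0.00274), Greb1 1419593_at was 1.17 at 24 h (adjusted p = 0.00264) with an interaction of F = 10.2 (adjusted p = 0.0171), and no call for the 4 tested probe sets of Pgr and Greb1 changed. The gene lists were not run with the block. Signal over background limits the 3 dim probe sets.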
